A study of Homo sapiens with 16 samples.

Results

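The 10 genes described here belong to the calcineurin pathway and were followed across all libraries of cardiomyocytes made from human pluripotent stem cells. They were chosen by name: the calcineurin subunit genes PPP3CA, PPP3CB and PPP3R1, the calcineurin regulator genes RCAN1, RCAN2 and RCAN3, and the transcription factor genes NFATC1, NFATC2, NFATC3 and NFATC4. These are 10 of the 43388 genes listed, and all 10 were among the 16122 genes tested. The cells came from WTC11, a wild-type human induced pluripotent stem cell line, and were differentiated by the GiWi protocol. Every group was grown with the B27 supplement, and each had 4 libraries. The groups were Day 16 cells in standard RPMI/B27, and Day 30 cells kept from Day 16 in RPMI/B27, in RPMI_glcM/B27 (RPMI with 5 mM glucose) or in HPLM/B27 (human plasma-like medium). In the paper, standard RPMI has more glucose than the 5 mM of HPLM and RPMI_glcM/B27. Each library came from 1 well of a plate, so the p-values measure the spread between wells. The paper refers to its RNA-seq as coming from 1 differentiation, so the spread between differentiations is not covered. The series text gives 3 wells for each medium, whereas the labels give 4 replicates, and all 16 libraries were used.

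Calcineurin is a phosphatase that is switched on by calcium and calmodulin. It consists of a catalytic A subunit, encoded by PPP3CA, PPP3CB or PPP3CC, and a calcium-binding B subunit, which outside the testis is encoded by PPP3R1. Active calcineurin removes phosphates from the NFATC proteins, which then enter the nucleus and act on target genes together with partner factors. The RCAN proteins bind calcineurin and can restrain it. RCAN1 itself is a known NFAT target: its short form starts at an internal promoter that carries a cluster of NFAT sites, and it is widely used as a readout of calcineurin activity in the heart, where the pathway is best known for its part in hypertrophic growth.

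Promoter windows are shown for RCAN1, the member that separated the media, and for NFATC2, whose level fell most from Day 16 to Day 30 in RPMI/B27. The sequences are from RefSeq on GRCh38.p14, run from 250 bases before a transcript start to 50 bases after it, and are written 5′ to 3′ on the gene's own strand. Capitals mark the core letters of the NFAT site, GGAAA, or TTTCC for the same letters on the other strand. The RCAN1 windows shown are an internal one, at chr21:34526773-34527072, called the internal window below, and the most upstream one, at chr21:34615064-34615363. The NFATC2 window is at chr20:51562790-51563089. All of these lie on the minus strand.
RCAN1 internal start: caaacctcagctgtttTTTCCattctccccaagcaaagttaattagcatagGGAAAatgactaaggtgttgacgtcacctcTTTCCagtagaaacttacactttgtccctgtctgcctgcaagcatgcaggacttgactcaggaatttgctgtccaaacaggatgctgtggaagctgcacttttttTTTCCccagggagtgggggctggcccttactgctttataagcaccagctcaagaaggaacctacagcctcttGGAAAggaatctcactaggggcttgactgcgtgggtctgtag
RCAN1 upstream start: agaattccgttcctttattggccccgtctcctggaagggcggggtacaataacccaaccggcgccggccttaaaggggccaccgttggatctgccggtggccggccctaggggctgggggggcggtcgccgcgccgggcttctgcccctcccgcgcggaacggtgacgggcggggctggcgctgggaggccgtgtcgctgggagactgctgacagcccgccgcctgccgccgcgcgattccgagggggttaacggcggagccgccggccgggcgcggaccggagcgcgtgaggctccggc
NFATC2 upstream start: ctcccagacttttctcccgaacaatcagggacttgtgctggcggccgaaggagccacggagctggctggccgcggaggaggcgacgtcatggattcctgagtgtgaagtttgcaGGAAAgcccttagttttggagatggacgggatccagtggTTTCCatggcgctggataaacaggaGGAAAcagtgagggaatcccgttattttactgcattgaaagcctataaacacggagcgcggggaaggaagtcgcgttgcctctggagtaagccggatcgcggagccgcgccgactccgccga
The internal RCAN1 window held 5 matches, and 0.740% of the 35116 windows in the table held at least as many. None was found in the upstream RCAN1 window, and the NFATC2 window shown held 3, a number reached by 9.94% of windows. The internal RCAN1 window and the NFATC2 window shown are those with the most matches for each gene: of the 4 other RCAN1 windows, 2 held 1 match each and 2 held 0, and the other NFATC2 window held 0. At least 1 match was present in 61.2% of all windows, so a single match is common. Of the 10 genes, 8 had an entry, with 21 windows in all, and the internal RCAN1 window held the most matches among them. The deposited values are per gene, so the RCAN1 starts cannot be told apart in the levels given here, and a match is a description of the letters in the window.

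The values are TPM (reads divided by gene length and scaled to the same total in every library). The mitochondrial ribosomal RNA gene RNR2 alone took 41.0% to 48.3% of this total. Its share was 41.4% to 43.9% at Day 16 and 46.2% to 48.3% in HPLM/B27. The 7SK RNA gene RN7SK took 8.76% to 13.8%. Each library held between 7744768 and 16183655 reads on genes, as recovered from the TPM. Day 30 RPMI/B27 replicates 3 and 4 stood apart: their median-of-ratios factors, which give how high most genes lie in a library, were 0.788 and 0.722 against 1.15 and 1.17 in replicates 1 and 2. The mitochondrial ribosomal RNA gene RNR1 was at 14387 and 29276 TPM in them, and at 49.5 to 6806 TPM in the other libraries. Calls of the 10 genes that rest on this group are therefore also given without these libraries. The median gene also lay 0.28, 0.22 and 0.29 log2 units lower at Day 30 than at Day 16 for RPMI/B27, RPMI_glcM/B27 and HPLM/B27. Fold changes of the 10 genes from Day 16 are therefore given both on the deposited TPM and after median-of-ratios scaling, which divides each library by its factor and brings these medians to 0.00, 0.01 and -0.00. All 10 cardiomyocyte markers were tested, with a summed level of 15088 to 20025 TPM over the libraries, and endothelial, immune and pluripotency markers were far lower.

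The genes spanned a wide range of levels. RCAN2 and PPP3R1 were the highest, with means of 87.2 and 83.2 TPM over the 16 libraries, which placed them above 95.5% and 95.3% of the genes tested. PPP3CB, RCAN1 and PPP3CA followed with means of 41.5, 38.1 and 37.8 TPM. NFATC3 was the most abundant of its family at 16.2 TPM, above RCAN3 at 10.7 TPM. NFATC2, NFATC4 and NFATC1 were low, at 4.50, 2.69 and 1.70 TPM. In reads these range from 964 to 3232 per library for RCAN2 down to 14 to 86 for NFATC1, so the NFATC1 values carry the largest counting error. The order of the means was nearly the same in each group, with RCAN1 moving from the fifth place in the other groups to the third in HPLM/B27. Several neighbours in this order had overlapping libraries. In HPLM/B27 RCAN1 and PPP3R1 overlapped, with 52.2 to 87.4 and 73.5 to 79.8 TPM, whereas PPP3CA lay just below PPP3CB, with 28.3 to 35.3 against 35.7 to 38.3 TPM. At Day 16 PPP3CA and PPP3CB overlapped, with 46.0 to 66.3 and 42.9 to 54.1 TPM, and so did RCAN2 and PPP3R1, with 51.3 to 97.0 and 85.1 to 98.6 TPM.

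**Figure D1:**
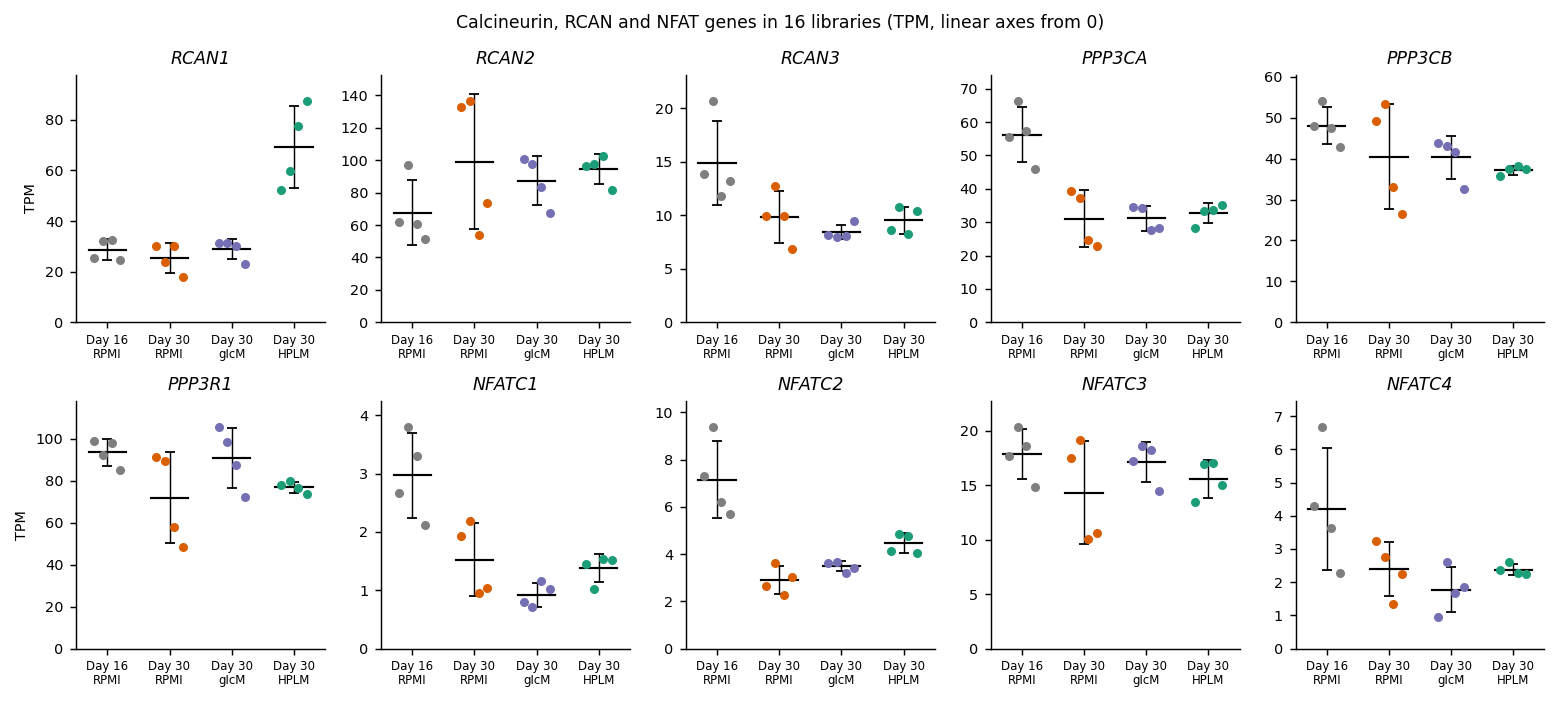
TPM of the 10 genes (vertical axes, linear and starting at 0) in the 4 groups (horizontal axes; RPMI, RPMI/B27; glcM, RPMI_glcM/B27; HPLM, HPLM/B27). Points are libraries in the order of replicates 1 to 4, bars the mean and whiskers the SD (n = 4). RCAN1 is higher in all HPLM/B27 libraries than in any other, and PPP3CA is higher in all Day 16 libraries than in any at Day 30.

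The media at Day 30 separated RCAN1 from the other genes. HPLM/B27 and RPMI_glcM/B27 have the same glucose but differ in other components, and the paper gives HPLM more calcium than RPMI. The part of calcium in these results was not tested. Between HPLM/B27 and RPMI_glcM/B27 limma called 1 of the 10 genes at an adjusted p of 0.05, against 0.0682% of all genes tested. After median-of-ratios scaling it was again 1, against 1.63%. For HPLM/B27 against RPMI/B27, 1 of the 10 was called, against 2.41% of all genes, and 2 after scaling, against 12.9%. RPMI_glcM/B27 and RPMI/B27 differ only in glucose, which is lower in RPMI_glcM/B27, and there limma called 0 of the 10, against 2.2% of all genes. At an unadjusted p under 0.05 it was 1 of the 10, against 2408 of the 16122 genes tested. Limma-voom called 1 of the 10 there, against 12.9%, and limma after scaling 1, against 12.1%.

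Time in culture moved more of the 10 genes, as it did the rest. Against Day 16, 4 were called in RPMI/B27 (19.9% of all genes), 5 in RPMI_glcM/B27 (21.1%) and 5 in HPLM/B27 (25.4%). Lower calls made up 4 of these in RPMI/B27, against 17.8% of all genes, 5 in RPMI_glcM/B27, against 17.8%, and 4 in HPLM/B27, against 22.4%. The only higher call was RCAN1 in HPLM/B27, against 3% of all genes. Without RPMI/B27 replicates 3 and 4, the calls in RPMI/B27 numbered 3, with PPP3CA and NFATC2 lower and RCAN2 higher. The share of all genes called in that fit is not given here. Over the alternative fits of this comparison, 998 to 4734 of all genes were called. The split changed with median-of-ratios scaling. RPMI/B27 then had 1 gene called higher (8.62% of all genes) and 3 lower (8.91%). RPMI_glcM/B27 had 1 higher (13.4%) and 5 lower (14.2%), and HPLM/B27 had 2 higher (12.9%) and 2 lower (12.5%). On TPM the Day 30 libraries lay wholly below those of Day 16 for 2 genes with RPMI/B27 (16.2% of all genes), 4 with RPMI_glcM/B27 (25.9%) and 6 with HPLM/B27 (32.1%). After scaling the numbers were 3, 3 and 3, against 10.4%, 15.4% and 13.8% of all genes. The 3 comparisons use the same Day 16 libraries, so their calls do not stand independently.

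**Figure D2:**
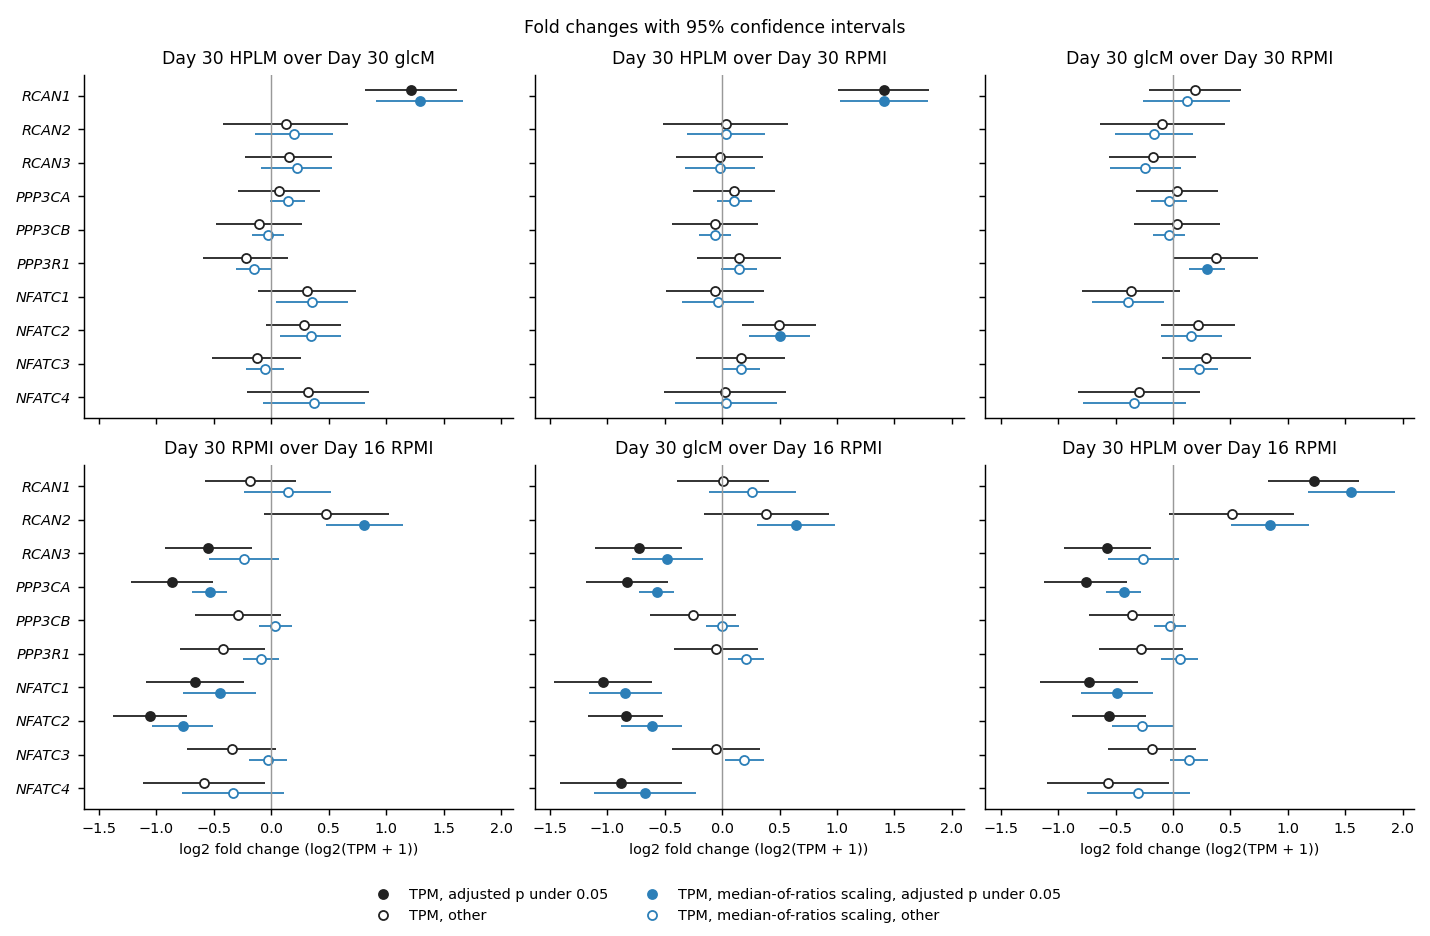
Log2 fold changes of the 10 genes in the 6 comparisons (horizontal axes) with 95% confidence intervals from limma, on deposited TPM (black) and after median-of-ratios scaling (blue). Filled points have an adjusted p under 0.05. RCAN1 lies right of 0 in every HPLM/B27 panel, and PPP3CA lies left of 0 in every panel against Day 16.

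RCAN1, a calcineurin regulator gene, was the gene that differed most between HPLM/B27 and the other media. Its levels in HPLM/B27 were 52.2, 59.8, 77.6 and 87.4 TPM in replicates 1 to 4. In RPMI_glcM/B27 they were 31.2, 31.5, 29.9 and 22.9 TPM. In RPMI/B27 they were 30.2, 23.7, 30.2 and 17.96 TPM. The lowest HPLM/B27 library was thus well above the highest of either other medium, and the spread inside HPLM/B27 was wide. At Day 16 the levels were 25.5, 32.1, 32.7 and 24.6 TPM, which overlap those of RPMI/B27 and RPMI_glcM/B27 at Day 30. RCAN1 lies on chromosome 21 from 34516442 to 34615113, and 522 to 2489 reads per library stand behind these values.

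Against RPMI_glcM/B27, RCAN1 was 2.32-fold higher in HPLM/B27 (log2 fold change 1.21, 95% CI 0.82 to 1.61, adjusted p = 0.0220 in limma). This call was close to the threshold: the log2 fold change stayed between 1.09 and 1.34 when each library was left out in turn, but the adjusted p then reached 0.105. It lay above 0.05 without any 1 of the RPMI_glcM/B27 libraries or without HPLM/B27 replicate 2, 3 or 4, and passed without HPLM/B27 replicate 1 (adjusted p = 0.0167). Among all genes the calls in this comparison also fell, from 11 to between 1 and 5, with each library left out. With all libraries RCAN1 ranked 4 by p-value in limma among the 16122 genes tested. In the 10 other settings of the fit, the adjusted p of RCAN1 lay between 0.000266 and 0.0422. Against RPMI/B27, RCAN1 was 2.65-fold higher (log2 fold change 1.41, 95% CI 1.01 to 1.80, adjusted p = 0.000686), or higher by 1.31 on the log2 scale (adjusted p = 0.00207) without RPMI/B27 replicates 3 and 4. Against Day 16 it was 2.34-fold higher (log2 fold change 1.22, 95% CI 0.83 to 1.62, adjusted p = 0.000285), or a log2 fold change of 1.51 relative to the median gene. The last 2 calls held without each library in turn, with adjusted p of at most 0.00475 and 0.00165.

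Scaling changed RCAN1 little. After median-of-ratios scaling its log2 fold changes in HPLM/B27 were 1.29, 1.41 and 1.55 against RPMI_glcM/B27, RPMI/B27 and Day 16, with adjusted p of 0.0019, 0.000165 and 1.63e-05. RPMI/B27 replicate 3 was then the highest library outside HPLM/B27, at 38.3 scaled TPM, against 58.5 in the lowest HPLM/B27 library. Neither glucose nor time in RPMI moved RCAN1 past the threshold. The log2 fold change was 0.19 (95% CI -0.21 to 0.59, adjusted p = 0.695) for RPMI_glcM/B27 against RPMI/B27, -0.18 (95% CI -0.58 to 0.22, adjusted p = 0.496) for RPMI/B27 from Day 16, and 0.01 (95% CI -0.39 to 0.41, adjusted p = 0.981) for RPMI_glcM/B27 from Day 16. In bulk RNA a change in the share of cells of a type and a change in RNA per cell cannot be told apart, here as for every gene below. Between RPMI_glcM/B27 and HPLM/B27 the summed cardiomyocyte markers overlapped, with 17498 to 19510 and 15697 to 18834 TPM. So did the fibroblast markers, with 118 to 163 and 122 to 186 TPM, and the smooth muscle markers, with 245 to 324 and 276 to 483 TPM, although 1 of the 4 smooth muscle markers tested was called higher in HPLM/B27. In RPMI/B27 the fibroblast markers were at 151 to 299 TPM, and the hepatic endoderm markers were at 293 to 529 TPM against 63.0 to 182 TPM in HPLM/B27. The pluripotency markers, by contrast, were wholly higher in HPLM/B27, at 23.5 to 31.1 TPM against 15.5 to 20.7 TPM with RPMI_glcM/B27 and 9.19 to 17.6 TPM with RPMI/B27. Most of that sum was TDGF1, whose means were 24.7, 14.3 and 11.04 TPM, while POU5F1 and NANOG were under 1 TPM on average. Of the 3 pluripotency markers tested, 1 was called higher against RPMI/B27 on TPM and 1 against each medium after scaling. The part of these markers in the RCAN1 result was not tested.

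**Figure D3:**
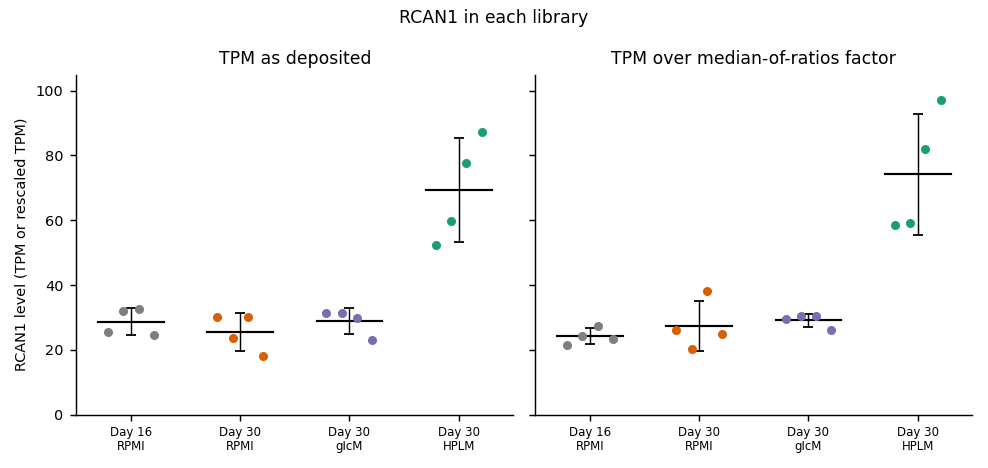
RCAN1 level in each library on deposited TPM (left) and on TPM divided by the library's median-of-ratios factor (right), with points for replicates 1 to 4, the mean and the SD (n = 4), on linear axes starting at 0. On both scales the 4 HPLM/B27 libraries lie above the other 12, from 52.2 TPM upward on the left and from 58.5 upward on the right.

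RCAN2, the most abundant RCAN gene, showed no difference between the media at Day 30 that passed the threshold. Its levels at Day 16 were 62.2, 97.0, 60.6 and 51.3 TPM. In RPMI/B27 at Day 30 they were 133, 137, 53.9 and 73.5 TPM, with the low values in the libraries that stand apart. RPMI_glcM/B27 gave 101, 97.6, 83.2 and 67.7 TPM, and HPLM/B27 gave 96.4, 97.6, 103 and 81.4 TPM. Every Day 30 group thus overlapped Day 16, through the high Day 16 replicate 2 in 2 of the 3 media. On TPM the log2 fold changes of RCAN2 from Day 16 were 0.48, 0.39 and 0.51 for RPMI/B27, RPMI_glcM/B27 and HPLM/B27, and none passed (adjusted p of 0.188, 0.313 and 0.152 in limma). After median-of-ratios scaling RCAN2 rose in all 3 media, by 0.81 (adjusted p = 0.00235), 0.64 (adjusted p = 0.00712) and 0.84 (adjusted p = 0.00114), and RPMI_glcM/B27 and HPLM/B27 no longer overlapped Day 16. Of all genes, 14.7% lay wholly above Day 16 in RPMI_glcM/B27 and 14.1% in HPLM/B27 on that scale. On TPM RCAN2 also passed in RPMI/B27 without its replicate 3, at 0.73 (adjusted p = 0.0458). Without RPMI/B27 replicates 3 and 4 the rise was 1.02 on TPM (adjusted p = 0.00743) and 1.04 after scaling (adjusted p = 0.000432).

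RCAN3, the least abundant of the RCAN genes, was lower at Day 30 than at Day 16 on TPM. Its Day 16 levels were 13.9, 20.7, 11.8 and 13.2 TPM. The Day 30 levels lay between 6.83 and 12.7 TPM in RPMI/B27, 7.997 and 9.47 TPM in RPMI_glcM/B27, and 8.26 and 10.8 TPM in HPLM/B27. RPMI_glcM/B27 and HPLM/B27 lay wholly below Day 16, and RPMI/B27 overlapped it. The log2 fold changes were -0.55 (adjusted p = 0.0411), -0.72 (adjusted p = 0.00876) and -0.57 (adjusted p = 0.0287), or -0.27, -0.51 and -0.28 relative to the median gene. With median-of-ratios scaling the fall in RPMI_glcM/B27 kept its call, at -0.48 (adjusted p = 0.0225), while RPMI/B27 and HPLM/B27 gave -0.24 (adjusted p = 0.291) and -0.26 (adjusted p = 0.220). The calls on TPM in RPMI/B27 and HPLM/B27 were also lost without Day 16 replicate 1 (adjusted p of 0.0751 and 0.0528) or replicate 2 (0.132 and 0.0997). In RPMI/B27 the same held without replicate 3 (adjusted p = 0.0723) or 4 (adjusted p = 0.140), and in HPLM/B27 without replicate 1 (adjusted p = 0.0754) or 3 (adjusted p = 0.0812). Without both RPMI/B27 replicates 3 and 4 the RCAN3 change there was -0.35 on TPM (adjusted p = 0.289) and -0.32 when scaled as well (adjusted p = 0.252). RCAN3 overlaps the antisense gene RCAN3AS, and whether the counting used strand is not given in the sources used here.

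PPP3CA, which encodes the alpha form of the catalytic subunit, was the subunit gene that changed with time. At Day 16 it was at 55.4, 66.3, 57.3 and 46.0 TPM. At Day 30 it was at 39.4, 37.4, 24.6 and 22.8 TPM in RPMI/B27. In RPMI_glcM/B27 the levels were 34.4, 34.1, 27.7 and 28.3 TPM, and in HPLM/B27 28.3, 33.3, 33.6 and 35.3 TPM. All 12 Day 30 libraries were lower than all 4 Day 16 libraries, and the 3 media overlapped. PPP3CA fell by 0.86, 0.83 and 0.76 on the log2 scale for RPMI/B27, RPMI_glcM/B27 and HPLM/B27 (adjusted p of 0.00282, 0.00261 and 0.00434 in limma). Relative to the median gene these were falls of 0.59, 0.61 and 0.47. After median-of-ratios scaling they were -0.54, -0.57 and -0.43, with adjusted p of 0.000119, 3.9e-05 and 0.000479. Each call passed without any 1 library, and without RPMI/B27 replicates 3 and 4 PPP3CA in RPMI/B27 changed by -0.53 (adjusted p = 0.0292). Between the media at Day 30 its log2 fold changes were 0.04 to 0.10, with 95% confidence intervals inside -0.32 and 0.46. Without RPMI/B27 replicates 3 and 4 PPP3CA differed from RPMI/B27 by -0.30 in RPMI_glcM/B27 (adjusted p = 0.170) and by -0.23 in HPLM/B27 (adjusted p = 0.237).

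PPP3CB, which encodes the beta form of the catalytic subunit, gave no call on TPM or after median-of-ratios scaling. Its means were 48.1 ± 4.58 TPM at Day 16 and 40.5 ± 12.8, 40.3 ± 5.22 and 37.2 ± 1.09 TPM at Day 30 for RPMI/B27, RPMI_glcM/B27 and HPLM/B27 (SD, n = 4). The HPLM/B27 libraries, at 35.7 to 38.3 TPM, lay below those of Day 16, at 42.9 to 54.1 TPM, but the log2 fold change of -0.36 did not pass (adjusted p = 0.143). After scaling the means were 40.5, 41.6, 40.6 and 39.7, and the log2 fold changes of PPP3CB from Day 16 were 0.04, 0.00 and -0.03, with confidence intervals inside -0.17 and 0.18. Without RPMI/B27 replicates 3 and 4, PPP3CB was lower in HPLM/B27 than in RPMI/B27 on TPM, by -0.45 (adjusted p = 0.0190), and at -0.14 (adjusted p = 0.172) when scaled as well. PPP3CB overlaps the antisense gene PPP3CB-AS1.

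The regulatory subunit gene PPP3R1 was at 98.6, 92.1, 98.0 and 85.1 TPM at Day 16. In RPMI/B27 at Day 30 it was at 91.2, 89.5, 58.1 and 48.5 TPM, in RPMI_glcM/B27 at 105.3, 98.1, 87.5 and 72.0 TPM, and in HPLM/B27 at 77.7, 79.8, 76.3 and 73.5 TPM. HPLM/B27 lay wholly below Day 16, while the other Day 30 groups overlapped it. None of the 6 comparisons passed on TPM. The change of PPP3R1 in RPMI/B27 from Day 16 was -0.42 (adjusted p = 0.0914), and it passed without RPMI/B27 replicate 1, at -0.55 (adjusted p = 0.0264), or replicate 2, at -0.55 (adjusted p = 0.0298). Without replicates 3 and 4 it was -0.05 (adjusted p = 0.866). The sign of its fold change from Day 16 depended on the scaling in RPMI_glcM/B27, with -0.05 on TPM (adjusted p = 0.854) and 0.21 after median-of-ratios scaling (adjusted p = 0.0511), and in HPLM/B27, with -0.28 (adjusted p = 0.247) and 0.06 (adjusted p = 0.623). After scaling, PPP3R1 was higher in RPMI_glcM/B27 than in RPMI/B27, by 0.30 (adjusted p = 0.0173), with 81.8 to 99.5 against 67.1 to 79.0 scaled TPM. On TPM that difference was 0.37 (adjusted p = 0.331), and without RPMI/B27 replicates 3 and 4 it was -0.01 on TPM (adjusted p = 0.976) and 0.23 after scaling (adjusted p = 0.110). PPP3R1 overlaps PPP3R1-AS1.

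Among the NFAT genes, NFATC2 showed the clearest change. It was at 7.30, 9.37, 6.20 and 5.71 TPM at Day 16 and at 2.63, 3.63, 2.27 and 3.04 TPM in RPMI/B27 at Day 30. RPMI_glcM/B27 gave 3.63, 3.68, 3.21 and 3.43 TPM, and HPLM/B27 gave 4.14, 4.87, 4.77 and 4.06 TPM. All Day 30 libraries were below all Day 16 libraries, and the HPLM/B27 libraries lay above those of both other media. NFATC2 fell by 1.06, 0.84 and 0.56 for RPMI/B27, RPMI_glcM/B27 and HPLM/B27 on the log2 scale (adjusted p of 0.000316, 0.00104 and 0.0144 in limma). After median-of-ratios scaling the changes were -0.77 (adjusted p = 0.000545), -0.61 (adjusted p = 0.00195) and -0.27 (adjusted p = 0.133), so the call in HPLM/B27 was lost. It was also lost on TPM without Day 16 replicate 2, at -0.44 (adjusted p = 0.0519). Without RPMI/B27 replicates 3 and 4 the change of NFATC2 in RPMI/B27 was -0.97 (adjusted p = 0.00292).

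Between the media at Day 30, NFATC2 was at a log2 difference of 0.50 in HPLM/B27 over RPMI/B27 (95% CI 0.17 to 0.82, adjusted p = 0.109). The value was the same after median-of-ratios scaling, where it passed (adjusted p = 0.0155), and with RPMI/B27 replicates 3 and 4 left out it was 0.41 on TPM (adjusted p = 0.0976) and 0.65 when scaled as well (adjusted p = 0.00587). Over RPMI_glcM/B27 the difference was 0.28 (95% CI -0.04 to 0.60, adjusted p = 0.835), and 0.34 after scaling (adjusted p = 0.214). NFATC2 and RCAN1 were the 2 genes of the 10 whose HPLM/B27 libraries did not overlap those of RPMI_glcM/B27 on TPM, against 2.41% of all genes that lay wholly higher in HPLM/B27. The same 2 genes did not overlap between HPLM/B27 and RPMI/B27, against 4.13% of all genes.

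NFATC1, known for its part in forming the heart valves, was low in every group. Its levels were 2.68, 3.79, 3.30 and 2.12 TPM at Day 16 and 1.93, 2.19, 0.959 and 1.04 TPM in RPMI/B27 at Day 30. RPMI_glcM/B27 was lowest, at 0.798, 0.705, 1.17 and 1.01 TPM, and HPLM/B27 gave 1.44, 1.02, 1.54 and 1.52 TPM. RPMI_glcM/B27 and HPLM/B27 lay wholly below Day 16, while RPMI/B27 replicate 2 reached the lowest Day 16 library. NFATC1 fell by 0.67, 1.04 and 0.73 on the log2 scale (adjusted p of 0.0295, 0.00173 and 0.0153), and by 0.45, 0.84 and 0.49 after median-of-ratios scaling (adjusted p of 0.0478, 0.000618 and 0.0243). The call in RPMI_glcM/B27 held without each library in turn, with adjusted p of at most 0.00793. The call in HPLM/B27 was lost without Day 16 replicate 2 (adjusted p = 0.0507). In RPMI/B27 it was lost without Day 16 replicate 1, 2 or 3 (adjusted p of 0.0579, 0.0868 and 0.0808) or RPMI/B27 replicate 3 or 4 (0.0910 and 0.0939), and without both of the latter the change was -0.36 (adjusted p = 0.312). Only 14 to 21 reads per library stood behind NFATC1 in RPMI_glcM/B27. Its log2 difference there from RPMI/B27 was -0.37 (adjusted p = 0.417), and -0.67 (adjusted p = 0.0493) without RPMI/B27 replicates 3 and 4, or -0.52 (adjusted p = 0.0915) when scaled as well.

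NFATC3 was the most even of the NFAT genes. Its levels were 14.8 to 20.3 TPM at Day 16 and 10.02 to 19.2, 14.5 to 18.6 and 13.4 to 17.1 TPM at Day 30 for RPMI/B27, RPMI_glcM/B27 and HPLM/B27. All groups overlapped on TPM, and none of the 6 comparisons passed on TPM or after median-of-ratios scaling. After scaling RPMI_glcM/B27 lay wholly above Day 16, with 16.27 to 18.58 against 14.06 to 15.65 scaled TPM, as did 14.7% of all genes. The log2 fold changes of NFATC3 from Day 16 were -0.34, -0.05 and -0.18 on TPM (adjusted p of 0.184, 0.862 and 0.477), and -0.03, 0.19 and 0.14 after scaling (adjusted p of 0.847, 0.0791 and 0.223), so that the sign turned with the scaling in RPMI_glcM/B27 and HPLM/B27. In RPMI/B27 the change on TPM passed without replicate 2, at -0.49 (adjusted p = 0.0436), and was 0.04 (adjusted p = 0.890) without replicates 3 and 4.

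NFATC4 was at 4.29, 6.66, 3.62 and 2.28 TPM at Day 16, a wide spread. RPMI_glcM/B27 gave 0.945, 2.60, 1.68 and 1.84 TPM, RPMI/B27 1.33 to 3.25 TPM and HPLM/B27 2.23 to 2.61 TPM. The Day 30 groups overlapped Day 16 through its replicate 4. NFATC4 fell in RPMI_glcM/B27, by 0.88 on the log2 scale (adjusted p = 0.0193) and by 0.67 after scaling (adjusted p = 0.0265). That call was lost without Day 16 replicate 1 (adjusted p = 0.0519), Day 16 replicate 2 (adjusted p = 0.0686) or RPMI_glcM/B27 replicate 1 (adjusted p = 0.0615). In RPMI/B27 and HPLM/B27 the changes were -0.59 (adjusted p = 0.103) and -0.56 (adjusted p = 0.106), and both passed without Day 16 replicate 4 (adjusted p of 0.0346 and 0.0329). After scaling they were -0.33 (adjusted p = 0.307) and -0.30 (adjusted p = 0.328), and without RPMI/B27 replicates 3 and 4 the former was -0.32 on TPM (adjusted p = 0.560).

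The sums of several marker lists of other cells were also lower at Day 30. The summed endothelial and endocardial markers were at 42.7 to 54.8 TPM at Day 16 and at 13.6 to 31.6, 16.4 to 25.4 and 19.2 to 31.2 TPM at Day 30 for RPMI/B27, RPMI_glcM/B27 and HPLM/B27. Of the 8 genes in that list 7, among them PECAM1, CDH5 and VWF, were under 1 TPM on average, and KDR made up most of the sum. The summed fibroblast markers were at 239 to 436 TPM at Day 16 and 151 to 299, 118 to 163 and 122 to 186 TPM at Day 30. The hepatic endoderm markers were at 407 to 725 TPM and then at 293 to 529, 86.8 to 194 and 63.0 to 182 TPM. Within that list 5 of the 6 genes tested were called lower from Day 16 and 1 higher in each medium, with ALB at a mean of 21.2 TPM at Day 16 and 242, 78.1 and 49.9 TPM at Day 30. The pluripotency markers were at 52.7 to 69.8 TPM at Day 16 and at 9.19 to 17.6, 15.5 to 20.7 and 23.5 to 31.1 TPM at Day 30, with all 3 that were tested called lower in every medium on TPM and after scaling. The part of these markers in the changes of RCAN3, PPP3CA, NFATC1, NFATC2 and NFATC4 was not tested.

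Shares within a family are ratios of genes in the same library, so they do not change with the scaling between libraries. Of the summed TPM of the 3 catalytic subunit genes, PPP3CA made up 46.3% to 48.2% at Day 16 and 33.5% to 42.4% over the Day 30 libraries, without overlap. PPP3CB made up 39.1% to 43.2% at Day 16 and 44.5% to 50.6% at Day 30, again without overlap. The ratio of PPP3CA to PPP3CB was 1.16, 1.23, 1.21 and 1.07 at Day 16, so PPP3CA was the higher in every library. At Day 30 it lay between 0.702 and 0.863 in RPMI/B27, 0.664 and 0.869 in RPMI_glcM/B27, and 0.794 and 0.943 in HPLM/B27, so PPP3CB was the higher in all 12 libraries. PPP3CC, the catalytic gene that is not one of the 10, made up the rest, at 10.6% to 17.1%.

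Within the RCAN family RCAN1 took 33.2% to 48.8% in HPLM/B27 and 13.7% to 32.1% in the other 12 libraries. RCAN2 took 57.5% to 64.8% at Day 16 and 45.4% to 61.3% in HPLM/B27, and in HPLM/B27 replicate 4 RCAN1 exceeded it, with a ratio of RCAN1 to RCAN2 of 1.07. RCAN3 took 11.2% to 14.9% at Day 16 and 4.38% to 10.5% at Day 30. The sum of the 3 RCAN genes over the sum of the 3 catalytic genes ordered the groups. It was 0.869 to 1.08 at Day 16, 1.36 to 1.67 in RPMI/B27, 1.39 to 1.52 in RPMI_glcM/B27 and 2.07 to 2.27 in HPLM/B27. Day 16 was thus lowest and HPLM/B27 highest without overlap, while RPMI/B27 and RPMI_glcM/B27 overlapped.

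Within the NFATC family NFATC3 held 50.6% to 59.4% at Day 16 and 62.6% to 76.2% at Day 30, without overlap. NFATC2 held 19.5% to 23.3% at Day 16, 10.4% to 17.98% in RPMI/B27, 13.2% to 16.5% in RPMI_glcM/B27 and 17.8% to 19.4% in HPLM/B27. Its share was thus lower at Day 30 in every library, and that of HPLM/B27 lay above RPMI_glcM/B27 without overlap. The ratio of PPP3R1 to the summed catalytic genes was 0.666 to 0.856 at Day 16 and 0.998 to 1.14 in RPMI_glcM/B27, the group in which it was highest on average.

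**Figure D4:**
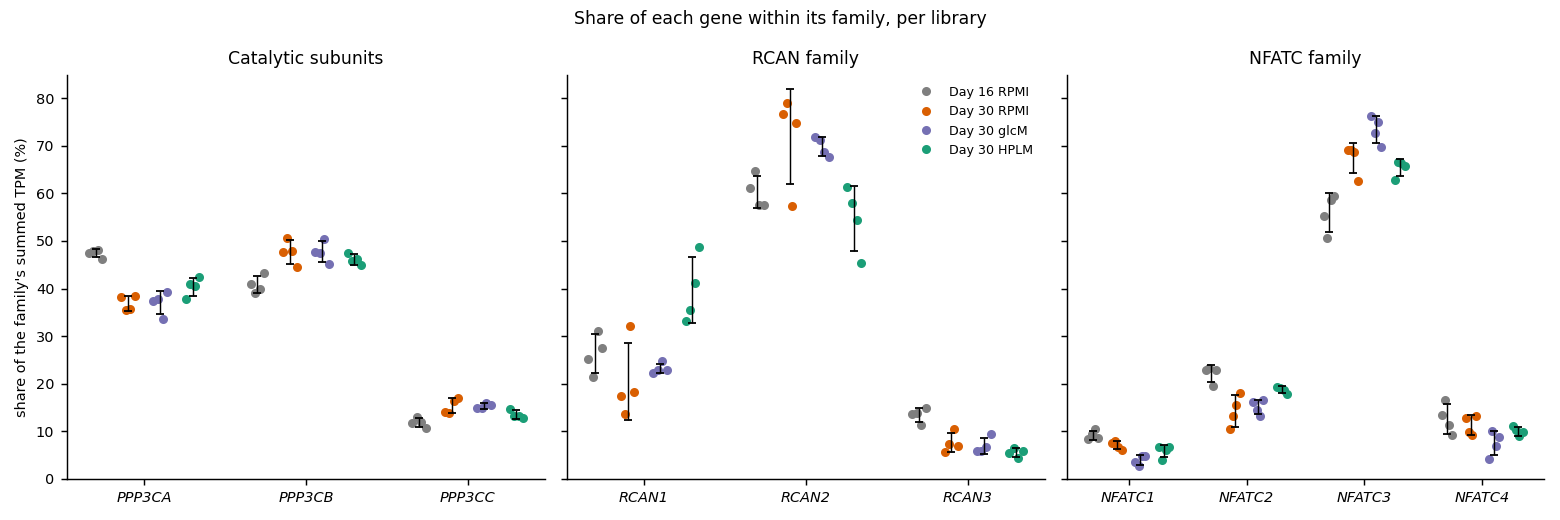
Share of each gene in the summed TPM of its family (vertical axis, percent, linear from 0) for the catalytic subunit genes, the RCAN genes and the NFATC genes, with points for the libraries of each group and whiskers for the mean ± SD (n = 4). PPP3CA lies above PPP3CB at Day 16 and below it at Day 30, and RCAN1 is highest in HPLM/B27.

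Other genes of the pathway were taken from 8 lists with 77 genes. Their fold changes are given on TPM with all libraries, and the counts also after median-of-ratios scaling. The counts from Day 16 need the shares of all genes beside them, given here for RPMI/B27, RPMI_glcM/B27 and HPLM/B27. On TPM 17.8%, 17.8% and 22.4% of all genes were called lower and 2.08%, 3.34% and 3% higher. After scaling 8.91%, 14.2% and 12.5% were called lower and 8.62%, 13.4% and 12.9% higher. Of the 10 calcium entry channel genes, 0 rose from Day 16, while 3 fell with RPMI/B27, 4 with RPMI_glcM/B27 and 3 with HPLM/B27, with medians of -0.30, -0.58 and -0.50 against -0.28, -0.22 and -0.29 for all genes. Examples are ORAI3, a store-operated channel subunit, at -0.78, -0.91 and -0.85 (adjusted p of 0.0379, 0.0153 and 0.0208), CACNA1H, a T-type calcium channel, at -0.58, -0.62 and -0.84 (adjusted p of 0.0417, 0.0290 and 0.00473), and TRPC4 at -0.77 in RPMI_glcM/B27 (adjusted p = 0.00908). ORAI3 lost its call after scaling in RPMI/B27, at -0.48 (adjusted p = 0.1005), and HPLM/B27, at -0.54 (adjusted p = 0.0504), and CACNA1H in RPMI/B27, at -0.37 (adjusted p = 0.111). After median-of-ratios scaling 2 rose and 0 fell in RPMI/B27, 4 fell in RPMI_glcM/B27 and 2 in HPLM/B27. Of the 3 calmodulin genes CALM2 and CALM3 fell in RPMI/B27 and RPMI_glcM/B27, and CALM3 in HPLM/B27 at -0.67 (adjusted p = 0.00301). After scaling CALM2 alone fell, in RPMI/B27 and RPMI_glcM/B27. PPP3CC did not pass in any comparison, and the testis subunit gene PPP3R2 was under the level tested.

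Among the 10 tested of 11 genes for other calcineurin inhibitors, anchors and binding proteins, the numbers that rose and fell from Day 16 were 0 and 2 with RPMI/B27, 1 and 3 with RPMI_glcM/B27, and 1 and 3 with HPLM/B27. CHP1, a calcineurin B-like protein that can inhibit calcineurin, fell in all 3, at -1.08, -1.11 and -1.06 (adjusted p of 0.000872, 0.000384 and 0.000563). FKBP1A, which encodes the protein that binds the calcineurin inhibitor tacrolimus, fell at -0.57, -0.70 and -0.69 (adjusted p of 0.0415, 0.0137 and 0.0143), and after scaling its call in RPMI/B27 was lost, at -0.24 (adjusted p = 0.134). MYOZ2, calsarcin-1, which ties calcineurin to the Z-disc, rose in HPLM/B27 at 0.49 (adjusted p = 0.00953) and RPMI_glcM/B27 at 0.36 (adjusted p = 0.0472). With median-of-ratios scaling the numbers were 2 and 1, 2 and 2, and 3 and 2. CHP2 was listed at 0 in every library. Of the 14 tested of 15 NFAT kinase, export and retention genes, 5, 2 and 3 fell in the 3 media and 0 rose. The shares of all genes that fell were 17.8%, 17.8% and 22.4%. Among those that fell were the nuclear exporter XPO1 at -0.69, -0.69 and -0.84 (adjusted p of 0.0061, 0.00457 and 0.00108) and the kinase gene DYRK2 at -0.70, -0.60 and -0.62 (adjusted p of 0.00505, 0.0101 and 0.00756). The scaled numbers that rose and fell were 0 and 2, 2 and 2, and 2 and 2. The long noncoding RNA gene NRON was under the level tested.

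The partner factors differed among themselves. Of the 10 genes 2 rose and 2 fell in RPMI/B27 from Day 16, 1 and 2 in RPMI_glcM/B27, and 3 and 3 in HPLM/B27. MEF2C, a cardiac transcription factor, fell by 1.40, 1.44 and 1.16 on the log2 scale (adjusted p of 3.93e-05, 1.46e-05 and 9.63e-05). FOS, a subunit of AP-1, with which NFAT proteins often bind DNA, rose in HPLM/B27 from Day 16 by 0.88 (adjusted p = 0.0366), and JUNB, of the same family, by 0.72 (adjusted p = 0.0129). The scaled numbers were 4 and 1, 2 and 2, and 4 and 2. Of the 13 tested of 14 genes of the calcium-calmodulin kinase arm, 1 and 2, 2 and 5, and 1 and 4 rose and fell, with CAMK2B higher in all media at 0.95, 0.98 and 0.81 (adjusted p of 0.00251, 0.0013 and 0.00494), and the scaled numbers were 3 and 0, 2 and 5, and 3 and 3.

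Textbook calcineurin-NFAT responsive genes, RCAN1 aside, numbered 12, of which 7 were tested. TRPC6, PTGS2, EGR2, EGR3 and BDNF were under the level tested. Between HPLM/B27 and RPMI_glcM/B27, 0 of the 7 passed in limma on TPM, against 0.0682% of all genes. After median-of-ratios scaling it was again 0, against 1.63%. With shares this low, 0 of 7 does not set these genes apart from the rest. Their median log2 fold change on TPM was 0.32, against -0.06 for all genes. Between HPLM/B27 and RPMI/B27 0 passed on TPM, against 2.41% of all genes. After scaling 1 did, against 12.9%, VEGFA at 0.61 (adjusted p = 0.00299). From Day 16, 3 rose and 2 fell with RPMI/B27, 2 and 2 with RPMI_glcM/B27, and 3 and 2 with HPLM/B27. MYH7, the slow myosin heavy chain, rose in each, at 0.36, 0.55 and 0.72 (adjusted p of 0.0394, 0.00317 and 0.000435), and VEGFA rose at 0.52, 1.08 and 1.13 (adjusted p of 0.0453, 0.00042 and 0.000303). NPPA, the atrial natriuretic peptide gene, rose in RPMI/B27 and HPLM/B27, at 0.82 (adjusted p = 0.0129) and 1.08 (adjusted p = 0.00163). EDN1, endothelin 1, fell in each, by 1.24, 1.85 and 1.54 on the log2 scale (adjusted p of 0.00103, 1.79e-05 and 9.57e-05). The scaled numbers were 3 and 2, 3 and 2, and 4 and 1.

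The 8 lists together hold 77 genes, some of them under the level tested. Between the media at Day 30 these gave 1 call in limma on TPM. It was TRPC4 in RPMI_glcM/B27 against RPMI/B27, at -0.76 (adjusted p = 0.0496), where 2.2% of all genes were called. After median-of-ratios scaling there were 10 in that comparison, against 12.1% of all genes, with AKAP1, CAMK2A, CSNK1D and VEGFA higher in RPMI_glcM/B27 and CAMK2D, CAMK2G, EDN1, HDAC9, STIM2 and TRPC4 lower. Between HPLM/B27 and RPMI/B27 there were 9 after scaling, against 12.9%, with AKAP1, CABIN1, CAMKK1, FOS, HOMER3 and VEGFA higher in HPLM/B27 and CAMK2G, TRPC4 and XPO1 lower. None of the listed genes passed on TPM between HPLM/B27 and RPMI_glcM/B27, against 0.0682% of all genes. After median-of-ratios scaling 3 did, against 1.63% of all genes. They were HOMER3 at 0.39 (adjusted p = 0.0471), MEF2C at 0.35 (adjusted p = 0.0384) and CAMK2A at -0.42 (adjusted p = 0.0467).

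The genes whose pattern over the 16 libraries was most like that of RCAN1 were GPR158, GEM, POPDC3, GPX3 and COLQ, with Pearson's r of log2(TPM + 1) of 0.94, 0.90, 0.88, 0.88 and 0.87 among the 9752 genes that averaged 5 TPM or more. GEM, a small GTPase that inhibits L-type calcium channels, was at 34.6 TPM in HPLM/B27 and 19.6, 10.6 and 14.6 TPM in RPMI_glcM/B27, RPMI/B27 and Day 16. GPR158 was at 14.1 TPM in HPLM/B27 and between 7.15 and 8.25 TPM in the other groups. After median-of-ratios scaling the 5 genes named for RCAN1 ranked 2, 7, 11, 9 and 13 in the order given. For PPP3CA the closest on TPM were SOGA1, RPRD2 and TP53BP2 (r of 0.98 for each), and for NFATC2 LAMA1, TMEM132A and PTPRF (r of 0.94). Scaling moved those of PPP3CA to ranks 3, 12 and 91 (r of 0.95, 0.92 and 0.86). For NFATC1 they were AIDA, UNC5B and KNTC1, with r between 0.93 and 0.95, for RCAN3 BBC3, SPATS2 and SLC26A6, with r between 0.90 and 0.93, and for NFATC4 SULF1, JPH3 and GRAMD1A, with r between 0.89 and 0.91. Among the 10 genes themselves, RCAN1 followed no other closely, with r after scaling between -0.19 and 0.35. PPP3CA followed NFATC1 and NFATC2 with r of 0.86 and 0.84, or 0.79 and 0.75 after scaling. These correlations are descriptions: the libraries fall into 4 groups and share a scale and a depth.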

How the data were processed

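Gene-level RNA-seq values of 16 libraries in 4 groups, assigned from the sample titles, were used. The authors aligned reads with STAR 2.5.3a, counted them with featureCounts 2.0.3 and deposited TPM per gene (hg38); the annotation, the gene lengths and the use of strand are not given in the sources used here. TPM were transformed to log2(TPM + 1), and the 16122 genes averaging 1 TPM or more were fitted with limma 3.58.1 (R 4.3.3; lmFit, eBayes with trend) over all 4 groups, with Benjamini-Hochberg adjustment within each of 6 comparisons and a threshold of 0.05. Fold changes are on the log2(TPM + 1) scale, which understates those of low genes. Confidence intervals are at 95%.

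Whole reads were recovered from the steps of the deposited TPM for all 31047 genes above 0 (within 0.02 of a whole number), which gave the depth, and were tested with limma-voom as an alternative. The other alternatives were median-of-ratios scaling, a pseudocount of 0.1, all genes above 0, a minimum of 5 TPM, TPM without mitochondrial, ribosomal RNA and 7SK/7SL genes, fits of only the groups compared, a replicate block, RNR1 as a covariate, and leaving out each library. Leaving out RPMI/B27 replicates 3 and 4, and the block with scaling, were added after seeing the data. The fits were tested on simulated data. The genes, the lists and the named genes (all 10 members, in each list up to 4 of the genes past the threshold with the largest change, and the 3 to 5 genes most correlated with members that were called) were chosen with earlier results of these data known. The marker genes KDR, ALB and TDGF1 were named after their values were seen. Tables were handled with Python 3.11.15, pandas 2.3.3, numpy 2.4.6 and scipy 1.17.1, and plotted with matplotlib 3.10.9. The values of 1 list gene are not reported here.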

Additional observations from a re-analysis of the deposited data

Results flagged for a closer look

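In RPMI_glcM/B27, RCAN3 was at 9.47 TPM in replicate 4 and at 7.997, 8.09 and 8.19 TPM in the others. The gap between the highest library and the next, divided by the range of the group, was 0.866, above Dixon's critical value for 4 samples. Of 40 groups tested this was the only such value, and chance alone gives about 2.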

How the results depend on the processing

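Of 1122 recomputed values 1035 kept their direction and their side of the threshold, 48 lost and 37 gained the call, and 2 turned. The values that turned were the PPP3R1 log2 fold change from Day 16 to RPMI_glcM/B27, 0.22 with limma-voom (adjusted p = 0.0397) and 0.21 with median-of-ratios scaling and the replicate block (adjusted p = 0.0341), against -0.05. Among 831 values not past the threshold, 93 changed sign.

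The count of the 10 genes called between HPLM/B27 and RPMI/B27 was 1, and 2 with median-of-ratios scaling, without mitochondrial, ribosomal RNA and 7SK/7SL genes, with limma-voom, with the replicate block, with the block and scaling, and when RPMI/B27 replicates 3 and 4 were left out, with or without scaling. Between RPMI_glcM/B27 and RPMI/B27 it was 0, and 1 with scaling, limma-voom, the block and scaling, or without those 2 libraries. From Day 16 to RPMI/B27 it was 4, and 2 at a minimum of 5 TPM or with only the groups compared. From Day 16 to RPMI_glcM/B27 it was 5, 2 at the minimum of 5 TPM, and up to 7, with limma-voom or with the block and scaling. From Day 16 to HPLM/B27 it was 5, 3 at that minimum and 8 with only the groups compared. The minimum of 5 TPM removes NFATC1, NFATC2 and NFATC4; the cause of the other shifts was not tested. With each library left out, the counts ranged from 0 to 1 for HPLM/B27 against RPMI_glcM/B27, 1 to 1 against RPMI/B27 and 2 to 6 against Day 16, from 2 to 6 for RPMI/B27 and 4 to 5 for RPMI_glcM/B27 against Day 16, and from 0 to 0 for RPMI_glcM/B27 against RPMI/B27. Calls among all genes moved as well in these fits. For HPLM/B27 they ranged from 1 to 5 against RPMI_glcM/B27, 187 to 519 against RPMI/B27 and 2820 to 4128 against Day 16. From Day 16 they ranged from 1761 to 5012 for RPMI/B27 and 2322 to 3334 for RPMI_glcM/B27. Between RPMI_glcM/B27 and RPMI/B27 the range was 143 to 441.

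Among all genes, calls between HPLM/B27 and RPMI_glcM/B27 numbered 11, and 10 to 268 over the alternatives. They numbered 388 (81 to 3367) between HPLM/B27 and RPMI/B27, 354 (45 to 1993) between RPMI_glcM/B27 and RPMI/B27, and 3203 (998 to 4734), 3400 (2288 to 4569) and 4088 (2997 to 5834) from Day 16 to RPMI/B27, RPMI_glcM/B27 and HPLM/B27.

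The labels share replicate numbers across groups, but same-numbered libraries did not all deviate together: 10 of 24 such pairs had r above 0.1 (-0.167 to 0.335, median 0.0586), against 14 of 72 pairs with other numbers (median -0.0301), and 0 libraries correlated best with their own number in every other group. With the replicate block the counts were 1, 2 and 0 between the media and 5, 5 and 5 from Day 16. Its calls among all genes lie within the ranges given above for the alternatives. Depth limits NFATC1 and NFATC4 most, with 14 to 86 and 24 to 170 reads per library.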
